A study of Mus musculus with 9 samples.

Results

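The Nodal, bone morphogenetic protein (BMP) and transforming growth factor beta (TGF-beta) pathway was followed through 51 genes in mouse embryonic stem (ES) cells and in embryoid bodies, the aggregates that ES cells form when they differentiate. The genes were chosen by name as members of the pathway, with earlier results of these data known: 15 ligands, 13 receptors and co-receptors, 8 Smads, 11 antagonists and modulators, and the 4 Id genes. A gene was measured where a probe set of the array was paired with its symbol alone, and the probe set of highest mean stood for the gene. All 51 had such a probe set, among 18193 genes in all. Expression was measured in total RNA on 9 Affymetrix arrays, 4 of ES cells (ES2, ES6, ES8 and ES10) and 5 of embryoid bodies (EB1, EB3, EB5, EB7 and EB9). Both groups came from the E14 mouse ES cell line, were labelled as untreated and carried no stated genetic change, and the labels give neither the age of the embryoid bodies nor how many cultures they came from. All arrays thus share a single cell line, which limits them as a model of the embryo.

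Ligands of this family bind pairs of type I and type II receptor kinases, and the type I receptor then phosphorylates Smad proteins. Smad2 and Smad3 carry signals of Nodal, activin and TGF-beta, Smad1, Smad5 and Smad9 carry those of BMPs, and Smad4 joins either kind, while Smad6 and Smad7 inhibit. In ES cells the family is known for Nodal with its co-receptor and its Lefty antagonists, and for BMP acting through Id genes. In the embryo, Nodal and BMP signals pattern the germ layers.

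Of the 51 genes, 26 were higher and 7 were lower in embryoid bodies at an adjusted P under 0.05 (limma, Benjamini-Hochberg over all probe sets tested), and 18 did not pass. The 33 that passed were 64.7% of the pathway genes, against 30.4% of all 18193 genes, of which 15.7% were higher and 14.7% lower. Values are log2 GCRMA intensities throughout, a group mean is given ± SD (n = 4 ES cell and 5 embryoid body arrays), a difference is embryoid bodies minus ES cells ± its standard error, and a fold is taken from that difference. The median difference was 0.54 over the 51 genes and -0.04 over all genes. In 35 of the 51, or 68.6%, no embryoid body array overlapped an ES cell array, against 35.0% of all genes. Of the genes that passed, 20 were at least 2-fold higher and 5 at least 2-fold lower. The genes that fell by at least 2-fold were Nodal, Gdf3, Tdgf1, Lefty1 and Lefty2, which are the ligands, co-receptor and antagonists of Nodal signalling among the 51. In whole cultures, fewer cells that express a gene and less of its RNA per cell cannot be told apart.

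**Figure D1:**
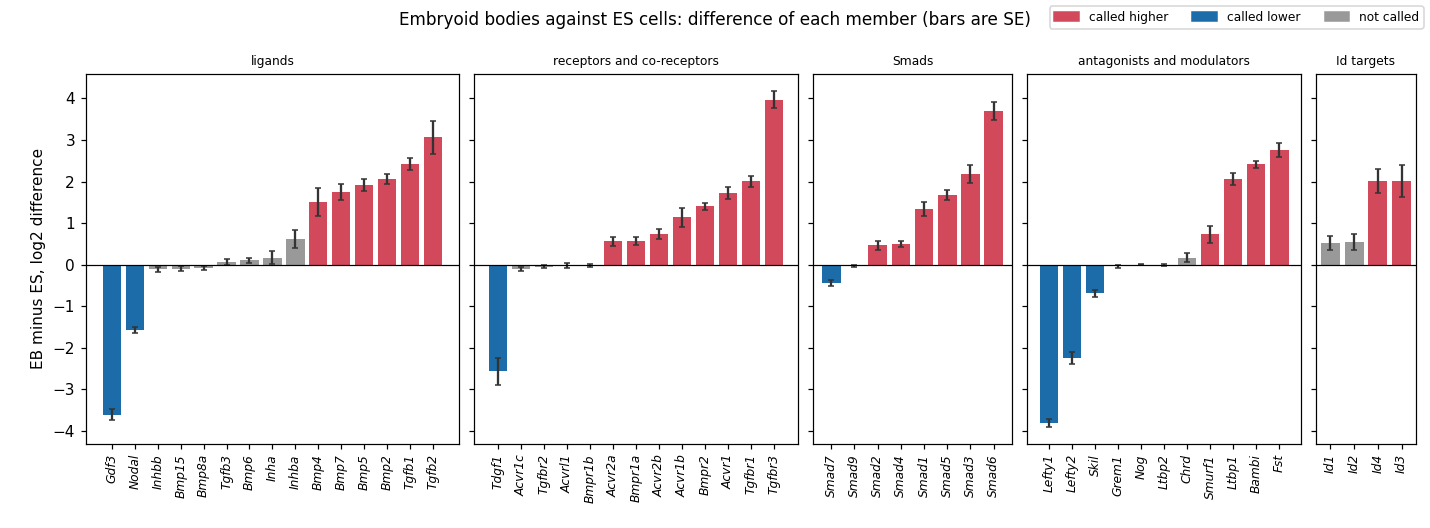
Difference of each pathway gene in log2 intensity, embryoid bodies (n = 5) minus ES cells (n = 4), grouped by role along the x axis, with bars for the standard error. The lowest point is Lefty1 at -3.81 and the highest is Tgfbr3 at +3.97, by the probe sets of highest mean. A second probe set of Tgfbr3 differed by -0.016.

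The arrays fell into sets within each group. ES8 and ES10 stood apart from ES2 and ES6: over all probe sets except controls the correlation was 0.9976 to 0.9978 within these pairs and 0.9953 to 0.9958 between them. EB7 and EB9 stood apart from EB1, EB3 and EB5 likewise, with 0.9983 to 0.9986 within and 0.9966 to 0.9975 between, whereas ES cell and embryoid body arrays correlated at 0.9683 to 0.9769. The labels held: ES cell markers summed to intensities of 13590 to 15520 in ES cells and 2141 to 3171 in embryoid bodies, with 6 of 8 lower and Tbx3 higher, and Esrrb between 8.21 and 8.65 on all arrays. Heart muscle markers summed to 145 to 193 and 7646 to 9071, with 4 of 5 higher. Endoderm (4 of 6 higher), streak and early mesoderm (3 of 5) and blood markers (2 of 4, the globins) were also higher in embryoid bodies, and of 4 neuroectoderm markers 1 was higher and 1 lower. Fibroblast and mesenchyme markers, with 5 of 6 higher and Thy1 near the floor, summed to 9907 to 10570 in embryoid bodies, to 322.3 and 274 in ES2 and ES6, and to 783.2 and 756.5 in ES8 and ES10. That gap within the ES arrays lay mostly in the collagens Col1a1 and Col3a1.

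Among the 15 ligands, Nodal and Gdf3 fell, and Tgfb1, Tgfb2, Bmp2, Bmp4, Bmp5 and Bmp7 rose. Gdf3, a ligand related to Nodal that uses the same co-receptor, read 10.13, 9.91, 9.76 and 9.74 in ES2, ES6, ES8 and ES10 and 6.09, 6.45, 6.13, 6.55 and 6.14 in EB1, EB3, EB5, EB7 and EB9. This order of arrays is kept below. The groups lay over 3 log2 units apart, with a difference of -3.61 ± 0.12, 12.2-fold lower (adjusted P = 2.06e-07). Nodal itself, which keeps the epiblast uncommitted and then drives mesendoderm, read 10.89, 10.72, 10.82 and 10.75 in ES cells and 9.37, 9.31, 9.24, 9.10 and 9.05 in embryoid bodies, with a difference of -1.58 ± 0.074, 2.98-fold lower (adjusted P = 9.78e-07). Its ES arrays were the tightest of any ligand that passed, with an SD of 0.078.

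The ligands that rose were led by Tgfb2, a TGF-beta of developing heart and mesenchyme. It read 6.46, 5.73, 7.87 and 7.59 in ES cells and 10.01, 10.03, 9.76, 10.08 and 9.98 in embryoid bodies, with a difference of +3.06 ± 0.39, 8.34-fold higher (adjusted P = 0.000372). Every embryoid body array lay above every ES array, but ES8 and ES10 were 1.63 above ES2 and ES6 on average. Tgfb1, a TGF-beta known for roles in blood and vessels, read 3.29, 3.30, 3.68 and 3.87 against 5.99, 6.11, 6.13, 5.90 and 5.64, with a difference of +2.42 ± 0.15, 5.35-fold higher (adjusted P = 3.54e-06). Its ES values were near the floor, the level to which GCRMA draws probe sets without signal, and 49.1% to 49.9% of the probe sets of an array read under log2 4.

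Bmp2, a BMP of extra-embryonic and heart-forming tissue, read 4.88, 4.65, 4.74 and 4.803 in ES cells and 6.91, 7.12, 6.95, 6.71 and 6.50 in embryoid bodies, with a difference of +2.07 ± 0.12, 4.2-fold higher (adjusted P = 2.86e-06). Bmp5 read 4.77, 4.97, 4.84 and 4.65 against 6.67, 7.11, 6.46, 6.88 and 6.47, with a difference of +1.91 ± 0.14, 3.76-fold higher (adjusted P = 1.18e-05). Neither Bmp2 nor Bmp5 showed a gap between the ES array pairs near the size of that in Tgfb2. The other probe sets of Bmp5 moved less. The second differed by +0.42 and passed (limma adjusted P = 0.0431), and the third differed by -0.030 and did not. Bmp7 averaged 3.99 ± 0.40 in ES cells and 5.75 ± 0.25 in embryoid bodies, with a difference of +1.75 ± 0.19, 3.37-fold higher (adjusted P = 0.000147). Its ES arrays ranged from 3.74 to 4.58, near the floor, so the fold depends on how the floor was set. The second probe set of Bmp7 differed by +0.60 and passed (limma adjusted P = 0.0034), and the third differed by +0.11 and did not. Bmp4, which the embryo needs for mesoderm, read 7.40, 7.43, 9.07 and 8.72 in ES cells and 9.65, 9.74, 9.52, 9.74 and 9.69 in embryoid bodies, with a difference of +1.51 ± 0.34, 2.85-fold higher (adjusted P = 0.011). Bmp4 was 1.48 higher in ES8 and ES10 than in ES2 and ES6, and its difference was 2.22 among arrays EB1, EB3, EB5, ES2 and ES6 alone and 0.82 among EB7, EB9, ES8 and ES10 alone, and it passed in each. The other 7 ligands, Inha, Inhba, Inhbb, Bmp6, Bmp8a, Bmp15 and Tgfb3, did not pass. Inhba, a subunit of activin A, read 3.71, 4.19, 3.56 and 4.001 against 3.99, 4.42, 4.19, 4.93 and 4.89, a difference of +0.62 ± 0.22 (adjusted P = 0.0759) with overlap.

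**Figure D2:**
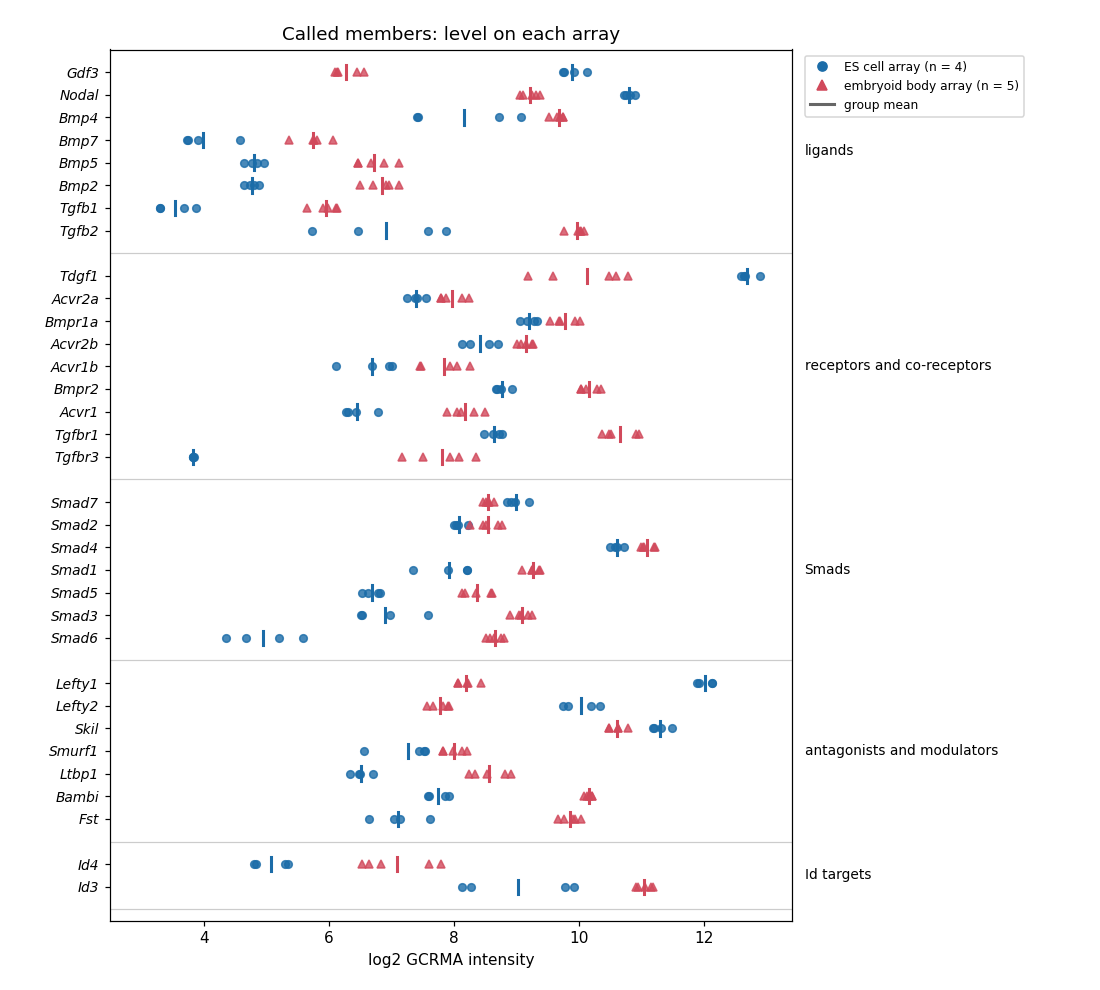
Log2 intensity (x axis) on each array for the 33 pathway genes that passed, one row per gene ordered by difference within its role, with circles for the 4 ES cell arrays, triangles for the 5 embryoid body arrays and vertical lines for group means. The rows of Bmp4, Tgfb2, Smad6 and Id3 show widely spaced ES circles, and that of Tdgf1 widely spaced embryoid body triangles.

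Of the 13 receptors and co-receptors, 8 rose, 1 fell and 4 did not pass, and the median difference was 0.57. The gene that fell was Tdgf1, also called Cripto, the co-receptor that Nodal and Gdf3 need. It read 12.63, 12.89, 12.64 and 12.58 in ES cells and 10.59, 10.78, 10.47, 9.58 and 9.17 in embryoid bodies, with a difference of -2.57 ± 0.32, 5.92-fold lower (adjusted P = 0.000314). EB7 and EB9 were the lowest embryoid body arrays, over 0.8 below EB1, EB3 and EB5. The ES cell marker sum was also lower in EB7 and EB9, at 2508 and 2141 against 2818 to 3171. The part of this in Tdgf1 was not tested.

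Tgfbr3, or betaglycan, which presents TGF-beta2 to its receptors, read 3.83, 3.83, 3.83 and 3.85 in ES cells and 8.08, 7.93, 8.35, 7.17 and 7.51 in embryoid bodies, with a difference of +3.97 ± 0.21, 15.7-fold higher (adjusted P = 1.99e-06). Its ES values were all near the floor, so the fold depends on how the floor was set. The second probe set of Tgfbr3 averaged 5.83 in ES cells and 5.82 in embryoid bodies and did not pass (limma adjusted P = 0.71). It was the higher of them in ES cells, so the probe set used had the highest mean only through its embryoid body values. Tgfbr1, the type I receptor of TGF-beta, read 8.62, 8.71, 8.77 and 8.47 against 10.37, 10.51, 10.48, 10.95 and 10.91, with a difference of +2.004 ± 0.13, 4.01-fold higher (adjusted P = 6.58e-06). The groups did not overlap in this probe set, but the other probe sets of Tgfbr1 lay near the floor and did not pass, the second differing by 0.073 (adjusted P = 0.484).

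Among the BMP and activin receptors, Acvr1, a type I receptor of BMPs, read 6.31, 6.79, 6.43 and 6.27 in ES cells and 7.88, 8.32, 8.10, 8.05 and 8.50 in embryoid bodies, with a difference of +1.72 ± 0.15, 3.3-fold higher (adjusted P = 2.91e-05). Bmpr2, the type II receptor of BMPs, read 8.75, 8.67, 8.93 and 8.68 against 10.02, 10.10, 10.03, 10.29 and 10.35, with a difference of +1.40 ± 0.088, 2.64-fold higher (adjusted P = 4.64e-06). The embryoid body arrays of each lay above all ES arrays. Acvr1b, the type I receptor of activin and Nodal, averaged 6.69 ± 0.41 in ES cells and 7.83 ± 0.36 in embryoid bodies, with a difference of +1.14 ± 0.23, 2.21-fold higher (adjusted P = 0.0057). The type II receptors shared by activin and Nodal had smaller differences, which were not tested against that of Acvr1b. Acvr2b averaged 8.41 ± 0.27 in ES cells and 9.14 ± 0.11 in embryoid bodies, a difference of +0.73 ± 0.12 (adjusted P = 0.00174). Acvr2a averaged 7.39 ± 0.13 in ES cells and 7.96 ± 0.21 in embryoid bodies, a difference of +0.57 ± 0.11 (adjusted P = 0.00529). Bmpr1a, a type I BMP receptor that mesoderm requires, averaged 9.20 ± 0.12 in ES cells and 9.77 ± 0.19 in embryoid bodies, a difference of +0.57 ± 0.10 (adjusted P = 0.00324). In ES2, ES6, EB1, EB3 and EB5 alone Acvr2a differed by 0.33 and Bmpr1a by 0.34, and in ES8, ES10, EB7 and EB9 alone by 0.87 and 0.86, passing in each.

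Bmpr1b, a second type I BMP receptor, averaged 8.42 ± 0.056 in ES cells and 8.40 ± 0.027 in embryoid bodies by its highest probe set, within a range of 0.133 over 9 arrays (adjusted P = 0.75). Its other probe sets lay near the floor and did not pass. The second averaged 3.168 in ES cells and 3.122 in embryoid bodies, and the third 2.998 and 2.916. Whether the highest probe set follows Bmpr1b RNA was not tested. Acvr1c and Acvrl1, type I receptors of Nodal and of endothelium, lay under log2 4 in mean. Tgfbr2, the type II receptor of TGF-beta, did not pass by its highest probe set, which read 6.51, 6.52, 6.50 and 6.52 in ES cells and 6.41, 6.43, 6.48, 6.50 and 6.51 in embryoid bodies (adjusted P = 0.386). A second probe set of Tgfbr2 averaged 5.28 in ES cells and 7.27 in embryoid bodies, a difference of 1.99 ± 0.18 (adjusted P = 4.23e-05), and the third was near the floor. Of the 33 pathway genes with several probe sets, Tgfbr2 was the only case in which another probe set passed and the highest did not. None had probe sets that passed in opposite directions, and in 7 every probe set passed the same way: Nodal, Gdf3, Tgfb2, Smad2, Smad4, Smad7 and Fst. In 18 the highest probe set passed and at least 1 other did not. In 12 of these 18 no other probe set passed, so the call rests on 1 probe set: Tgfb1, Tgfbr1, Tgfbr3, Acvr1, Acvr1b, Acvr2a, Bmpr2, Smad3, Smad5, Ltbp1, Skil and Smurf1. The second probe sets of Tgfb1, Tgfbr1, Acvr1, Acvr1b, Bmpr2, Ltbp1, Skil and Smurf1 had ES means of 2.20 to 4.42. Those of Tgfbr3 (5.83 and 5.82 in ES cells and embryoid bodies), Acvr2a (6.20 and 6.53), Smad3 (6.67 and 6.72) and Smad5 (6.94 and 7.29) were higher.

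**Figure D3:**
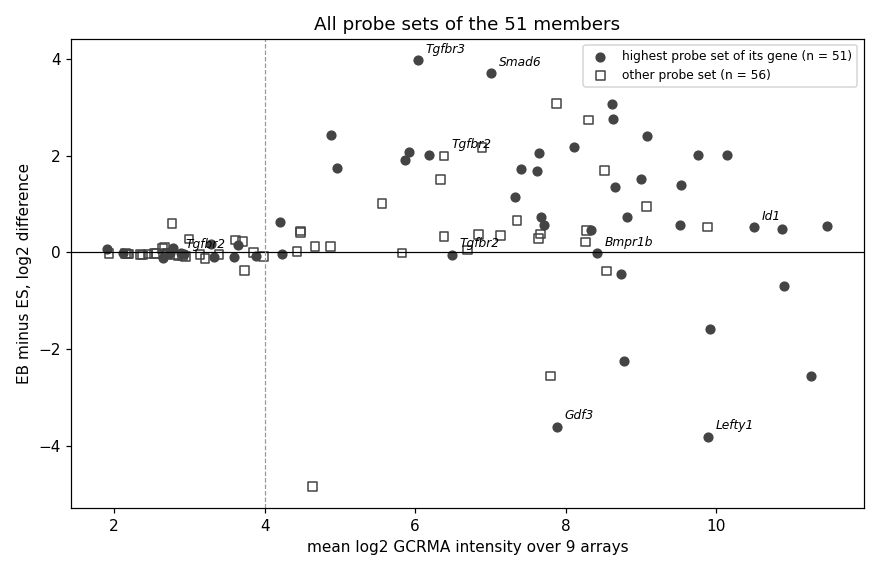
All 107 probe sets of the 51 pathway genes, with mean log2 intensity over the 9 arrays on the x axis and the log2 difference, embryoid bodies minus ES cells, on the y axis, the dashed line marking log2 4. Filled circles are the probe set used for each gene and open squares its others. The 3 points named Tgfbr2 differ from each other, with a single one at 1.99.

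Of 8 Smads, 6 rose, 1 fell and Smad9 did not pass, with a median difference of 0.92. Smad6, an inhibitor that BMP signals induce, read 4.67, 4.35, 5.59 and 5.19 in ES cells and 8.50, 8.75, 8.57, 8.64 and 8.79 in embryoid bodies, with a difference of +3.70 ± 0.22, 13-fold higher (adjusted P = 3.69e-06). The embryoid body arrays lay within 0.3 of each other, while the ES arrays spread over more than 1.2. Smad3, a carrier of TGF-beta and activin signals, read 6.53, 6.52, 7.58 and 6.98 against 8.90, 9.07, 9.04, 9.17 and 9.24, with a difference of +2.18 ± 0.21, 4.54-fold higher (adjusted P = 5.45e-05). Its partner Smad2 averaged 8.08 ± 0.10 in ES cells and 8.54 ± 0.20 in embryoid bodies, a difference of +0.46 ± 0.11 (adjusted P = 0.0117), and it did not pass among ES2, ES6, EB1, EB3 and EB5 alone, at 0.36 (adjusted P = 0.0579).

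Of the carriers of BMP signals, Smad5 and Smad1 passed. Smad5 read 6.79, 6.52, 6.63 and 6.81 in ES cells and 8.18, 8.13, 8.35, 8.60 and 8.59 in embryoid bodies, with a difference of +1.68 ± 0.12, 3.21-fold higher (adjusted P = 9.3e-06). Smad1 read 8.20, 8.21, 7.90 and 7.35 against 9.24, 9.37, 9.08, 9.35 and 9.24, with a difference of +1.34 ± 0.17, 2.54-fold higher (adjusted P = 0.000325). For each the groups were clear of each other in the probe set used, although ES8 and ES10 were 0.58 lower than ES2 and ES6 in Smad1. The second probe set of Smad5 differed by +0.35 and did not pass (limma adjusted P = 0.12). In ES cells it averaged 6.94, above the 6.69 of the probe set used. The second probe set of Smad1 differed by +1.695 and passed (adjusted P = 0.000928). Which of these genes rose more thus depended on the probe set and was not tested. Smad9 was near the floor on all arrays, between 2.86 and 2.96. Smad4, the common partner, read 10.72, 10.61, 10.57 and 10.49 against 11.04, 11.19, 10.99, 11.22 and 11.01, with a difference of +0.49 ± 0.066, 1.41-fold higher (adjusted P = 0.000495). Smad7, the general inhibitor, was the Smad that fell, averaging 8.98 ± 0.16 in ES cells and 8.54 ± 0.065 in embryoid bodies, a difference of -0.44 ± 0.076 (adjusted P = 0.00224), so the inhibitory Smads moved in opposite directions.

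Of 11 antagonists and modulators, Lefty1, Lefty2 and Skil fell, Fst, Bambi, Ltbp1 and Smurf1 rose, and 4 did not pass, with a median difference of -0.0069. Lefty1, a secreted antagonist and target of Nodal, read 12.12, 12.13, 11.88 and 11.91 in ES cells and 8.20, 8.43, 8.06, 8.23 and 8.07 in embryoid bodies, with a difference of -3.81 ± 0.091, 14.1-fold lower (adjusted P = 3.42e-08). By the probe sets of highest mean this was the largest fall of the 51 genes, although a second probe set of Gdf3 fell by 4.84. Lefty2 read 10.19, 10.33, 9.83 and 9.74 against 7.89, 7.83, 7.92, 7.66 and 7.56, with a difference of -2.25 ± 0.14, 4.76-fold lower (adjusted P = 3.56e-06). Lefty1 and Lefty2 are close copies of each other, and how far their probe sets cross-hybridise is not known here. Skil, a co-repressor that binds Smads, averaged 11.29 ± 0.14 in ES cells and 10.60 ± 0.13 in embryoid bodies, a difference of -0.69 ± 0.082 (adjusted P = 0.00023).

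Fst, or follistatin, which binds activin, read 7.03, 6.64, 7.62 and 7.13 in ES cells and 9.93, 10.03, 9.76, 9.90 and 9.66 in embryoid bodies, with a difference of +2.75 ± 0.17, 6.74-fold higher (adjusted P = 4.68e-06). Bambi, a receptor-like protein without a kinase that blocks BMP and TGF-beta receptors, read 7.86, 7.58, 7.92 and 7.60 against 10.08, 10.20, 10.15, 10.12 and 10.21, with a difference of +2.41 ± 0.079, 5.33-fold higher (adjusted P = 1.76e-07). Its embryoid body arrays spanned about 0.13. Ltbp1, which holds latent TGF-beta in the matrix, read 6.34, 6.48, 6.71 and 6.49 against 8.23, 8.53, 8.33, 8.90 and 8.81, with a difference of +2.06 ± 0.15, 4.16-fold higher (adjusted P = 1.08e-05). Each of these 3 stood clear of the ES arrays by more than 1.5.

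Smurf1, a ubiquitin ligase for BMP Smads, averaged 7.26 ± 0.47 in ES cells and 7.99 ± 0.17 in embryoid bodies, a difference of +0.73 ± 0.20 (adjusted P = 0.0308). It was the only gene of the 33 to lose its call when 1 array was left out, with adjusted P of 0.0613 without EB5 and 0.0738 without EB7. It did not pass either among ES2, ES6, EB1, EB3 and EB5 alone, at 0.84 (adjusted P = 0.138). One array, ES2, read 6.56 in Smurf1, 0.88 below the next ES array. Without ES2 the difference was 0.49 (adjusted P = 0.00896). The secreted BMP antagonists Nog, Chrd and Grem1, and the latent TGF-beta binding protein Ltbp2, did not pass. Of these, Grem1 read 4.10 to 4.27, and Nog, Chrd and Ltbp2 had means under log2 4.

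The Id genes encode helix-loop-helix proteins without a DNA-binding region and are standard targets of BMP Smads. Id3 and Id4 passed. All 4 had embryoid body arrays above every ES array, while the groups did not overlap in 35.0% of all genes. In Id1 and Id2 the margin was small. Their lowest embryoid body arrays read 10.63 and 11.33, and their highest ES arrays 10.62 and 11.32. Id3 read 8.27, 8.13, 9.92 and 9.78 in ES cells and 10.91, 11.05, 10.93, 11.17 and 11.14 in embryoid bodies, with a difference of +2.02 ± 0.38, 4.04-fold higher (adjusted P = 0.00369). Id4 read 5.35, 5.29, 4.84 and 4.797 against 6.53, 6.84, 6.65, 7.79 and 7.60, with a difference of +2.01 ± 0.29, 4.03-fold higher (adjusted P = 0.000691). ES8 and ES10 were the highest ES arrays in Id3 and the lowest in Id4, and EB7 and EB9 were the highest embryoid body arrays in Id4. Among ES2, ES6, EB1, EB3 and EB5 alone Id3 differed by 2.76 and Id4 by 1.35, and among ES8, ES10, EB7 and EB9 alone by 1.31 and 2.88, passing in each. Id1 read 9.81, 9.91, 10.53 and 10.62 against 10.63, 10.76, 10.66, 10.86 and 10.76, a difference of +0.52 ± 0.17 that did not pass (adjusted P = 0.0592). Id2 read 11.14, 11.32, 11.28 and 10.99 against 11.33, 11.50, 11.46, 12.16 and 12.17, a difference of +0.54 ± 0.19 that did not pass either (adjusted P = 0.0767).

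The bases before the starts of Id2 and Id3 are shown because Id3 passed and Id2 did not, although the difference between them was not tested. They are the 250 bases upstream, from RefSeq on GRCm38.p6, with capitals for matches to a motif. The motifs searched on both strands were the Smad element GTCTAGAC, the shorter Smad element CAGAC, the GC-rich box GGCGCC of Smad1 and Smad5, and the FoxH1 motif AATCCACA. GTCTAGAC does not contain CAGAC on either strand.
Id3, chr4:136143572-136143821, plus strand: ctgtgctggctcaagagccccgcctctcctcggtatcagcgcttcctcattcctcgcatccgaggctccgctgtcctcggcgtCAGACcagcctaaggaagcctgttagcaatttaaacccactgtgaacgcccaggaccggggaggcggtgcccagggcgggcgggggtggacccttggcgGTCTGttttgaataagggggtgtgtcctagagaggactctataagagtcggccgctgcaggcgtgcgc
Id2, chr12:25096093-25096342, minus strand: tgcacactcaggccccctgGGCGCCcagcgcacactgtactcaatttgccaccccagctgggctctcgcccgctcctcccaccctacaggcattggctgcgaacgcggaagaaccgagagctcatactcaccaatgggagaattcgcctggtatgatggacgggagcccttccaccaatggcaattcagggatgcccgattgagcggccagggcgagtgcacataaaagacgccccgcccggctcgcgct

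Id3 held CAGAC at bases 167 to 163 before the start and its reverse complement, GTCTG, at 68 to 64. Id2 held GGCGCC at 231 to 226. Windows of this length hold CAGAC in 42.2% of all promoters in the table and GGCGCC in 9.59%, against 0.167% for GTCTAGAC and 0.718% for AATCCACA. A match is a description of letters and no evidence of a bound Smad. The Nodal window on chromosome 10 held none of the 4 motifs.

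Several of the genes above varied between the array pairs, and 2 of the 6 mesenchyme markers, Col1a1 and Col3a1, did so in the same arrays. In ES8 and ES10 against ES2 and ES6, Id3 was 1.64 higher, Tgfb2 1.63, Bmp4 1.48, Smad6 0.88, Smad3 0.75, Id1 0.71, Fst 0.54 and Bmp7 0.51, and Acvr1b, Smad1 and Id4 were lower by 0.58, 0.58 and 0.51. These were chosen after their values were seen. Collagen Col1a1 read 6.98 and 6.78 in ES2 and ES6 but 9.03 and 9.02 in ES8 and ES10, and Col3a1 3.12 and 3.65 but 6.28 and 5.51. The other 4 markers showed no such gap: Col1a2 read 6.85 and 6.66 against 6.92 and 7.06, Twist1 5.90 and 5.26 against 5.62 and 5.54, and Postn and Thy1 were near the floor on all 4 ES arrays. The part of other cells in these values was not tested. With ES8 and ES10 left out, a setting chosen after the data were seen, the difference of Id3 was 2.84, of Tgfb2 3.88 and of Bmp4 2.25, and 26 genes were higher and 7 lower. Acvr2a did not pass in that setting, at 0.48 (adjusted P = 0.0599).

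**Figure D4:**
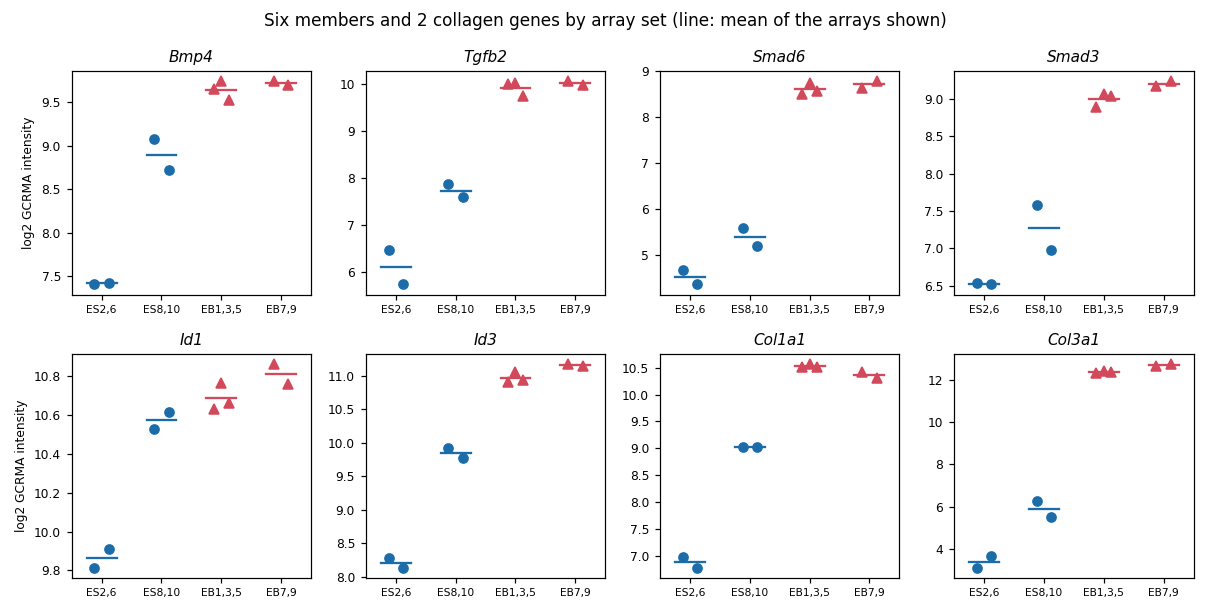
Log2 intensity (y axis, scaled per panel) of 6 pathway genes and the collagens Col1a1 and Col3a1, with the arrays in their sets along the x axis: ES2 and ES6, ES8 and ES10, EB1, EB3 and EB5, EB7 and EB9. Points are arrays and lines are means of the arrays shown; in the ES arrays the 2 collagens are higher in ES8 and ES10.

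Id1 and Id2 depended on these sets. Among ES2, ES6, EB1, EB3 and EB5 alone, the difference of Id1 was 0.82 (limma adjusted P = 0.00094), and among ES8, ES10, EB7 and EB9 alone it was 0.24 (adjusted P = 0.103). For Id2 the same values were 0.20 (adjusted P = 0.195) and 1.03 (adjusted P = 0.0058). With the array set as a block, Id1 differed by 0.56 (adjusted P = 0.0068) and Id2 by 0.58 (adjusted P = 0.0341). Id2 was higher in EB7 and EB9, at 12.16 and 12.17 against 11.33 to 11.50 in EB1, EB3 and EB5. The blood markers were lower in EB7 and EB9, summing to 1711 and 1983 against 7200 to 7758, and their part in Id2 was not tested.

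The 12 pathway genes of mean under log2 4 were Inha, Inhbb, Bmp6, Bmp8a, Bmp15, Tgfb3, Acvr1c, Acvrl1, Smad9, Nog, Chrd and Ltbp2. None passed, and their array values ran from 1.86 to 4.08, with differences between -0.11 and 0.17. At this level the arrays could not show whether they changed. The other 6 that did not pass were Inhba, Tgfbr2, Bmpr1b, Grem1, Id1 and Id2.

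Beyond the 51 genes, 65 further genes of the pathway were listed, of which 55 were measured; 18 were higher and 7 lower, together 45.5% against 30.4% of all genes, and the groups did not overlap in 50.9% against 35.0%. Their median difference was 0.05. Of 10 genes listed as other ligands, only Bmp1 passed, at +1.45 ± 0.19 (adjusted P = 0.000403). Bmp1 is a protease that releases ligands and processes collagen and is itself no ligand, so no ligand of this list passed. Of 5 other receptors and co-receptors, only Rgma, a BMP co-receptor, passed, at +1.45 ± 0.18 (adjusted P = 0.000248).

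Of 16 other antagonists and matrix modulators, 6 rose and 2 fell. Ltbp4, a latent TGF-beta binding protein like Ltbp1, went the other way from it, averaging 8.51 ± 0.15 in ES cells and 5.12 ± 0.41 in embryoid bodies, a difference of -3.39 ± 0.20 (adjusted P = 3.06e-06). Bmper, an extracellular BMP modulator, averaged 4.18 ± 0.12 in ES cells and 7.18 ± 0.23 in embryoid bodies, a difference of +3.003 ± 0.12 (adjusted P = 3.78e-07). Fstl1, a secreted relative of follistatin, differed by +1.85 ± 0.09 (adjusted P = 1.17e-06).

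Of 13 intracellular partners, 3 rose and 4 fell. Nedd4l, a ubiquitin ligase for Smads, differed by -1.16 ± 0.17 (adjusted P = 0.000835), Tgif1, a co-repressor, by -1.02 ± 0.065 (adjusted P = 4.9e-06) and Zeb2, a Smad-binding repressor, by +1.03 ± 0.15 (adjusted P = 0.000748). With their next highest probe sets Bmp1 and Nedd4l did not pass. Of 11 other targets measured, 7 rose and 1 fell. Tgfbi, a matrix protein induced by TGF-beta, averaged 5.32 ± 0.46 in ES cells and 11.15 ± 0.42 in embryoid bodies, a difference of +5.84 ± 0.26 (adjusted P = 7.57e-07). Foxa2, a Nodal-dependent factor of endoderm, rose by +5.65 ± 0.32 (adjusted P = 2.45e-06) from a level near the floor, and Eomes, a T-box factor of mesendoderm, by +1.71 ± 0.23 (adjusted P = 0.000447); these last also stand in the marker lists.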

How the data were processed

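RNA from 4 ES cell and 5 embryoid body arrays (Affymetrix mouse whole-genome expression arrays) was measured once per sample. The authors computed expression with GCRMA, which subtracts a background modelled on probe sequence, normalizes across arrays and summarises the probes of a probe set, and deposited linear-scale intensities of 45101 probe sets, from 2.136 to 37448. Whether all 9 arrays were normalized together is not given in the sources used here. GCRMA draws weak signals to a floor, so folds from it depend on that floor. The 4 ES cell arrays were biological replicates. For the embryoid bodies nothing says so, and their P values then measure only the spread between these arrays, whose number limits the precision.

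Here log2 was taken with no further normalization. The 64 control probe sets were left out, and the other 45037 were tested with limma 3.58.1 (R 4.3.3; lmFit and eBayes with trend and robust steps, two-sided, Benjamini-Hochberg over all 45037; passed at adjusted P under 0.05). The code was tested on simulated data. By GEO's platform annotation 34945 probe sets had 1 symbol, 932 several and 9160 none. The probe set of highest mean stood for a gene. That mean was taken over both groups, so the choice can rest on the group where a gene is high, as for Tgfbr3 and Smad5. No column lacked a sample. The genes and lists were chosen with earlier results of these data known.

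Array values are given for up to 5 genes per role with the largest absolute differences among those that passed, means for the others that passed or had a mean of log2 8 or more, and ranges for the rest. Array values of Nodal, Bmp4, Inhba, Tgfbr2, Id1 and Id2 were added after theirs were seen. Of the other pathway genes, up to 3 per list are named. Alternatives covered normalization, filters, the choice of probe set, array weights, the array sets (numbered up to 6, or 7 to 10) and each array left out. Of the 65 other genes and 39 markers listed, 55 and 38 had a probe set of their own and the rest were not analysed here. Promoters came from RefSeq, whose table held 3 of 7 searched.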

Additional observations from a re-analysis of the deposited data

Results flagged for a closer look

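Each group here is a pathway gene within ES cells or embryoid bodies. In 12 of 102 groups, 1 array lay far from the others of its group relative to the group's range. About 1 group in 20 would do so if values were independent and normally distributed. Values near the floor need not be, so no excess can be read from this count. Values are log2 intensities. Only 2 of the 12 had a gap of 0.5 or more to the next array: Smurf1 read 6.562 in ES2, with the next ES array at 7.439, and Inha read 3.955 in EB5, with the next embryoid body array at 3.219. The other 10 had smaller gaps. Inha and these 10 lay near the floor, with means over all arrays under log2 4 except Grem1 at 4.232. The far arrays were the highest of their group for Inhbb (2.943 in ES10), Bmp6 (3.023 in EB3), Bmp8a (4.079 in ES8), Bmp15 (3.534 in ES10), Tgfb3 (2.208 in EB7), Acvr1c (3.768 in ES10), Nog (2.14 in ES10) and Chrd in embryoid bodies (3.996 in EB1). They were the lowest for Chrd in ES cells (3.241 in ES6) and Grem1 (4.099 in EB3). Of these genes only Smurf1 passed the test between the groups.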

How the results depend on the processing

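Of the 33 pathway genes that passed, 16 passed in the same direction under each of 22 alternatives, and 32 did so with any 1 array left out, the exception being Smurf1. Among the 22 is a cut at a fold of at least 2 on the same fit, which 8 of the 33 failed by their size alone. With any 1 array left out, 25 to 27 genes of the 51 were higher and 7 were lower. The choice of probe set moved most: with the next highest probe set 15 of the 51 were higher. The 18 genes with 1 probe set kept it there. That setting could not change their calls, in this count or among the 16 above. Tgfb1 then differed by -0.033, Tgfbr3 by -0.016, Acvr1b by -0.031, Bmpr2 by -0.0014, Ltbp1 by -0.045 and Smurf1 by -0.081, against 1.99 for Tgfbr2. In that setting Tgfbr1 (0.073), Acvr1 (0.021), Acvr2a (0.33), Bmpr1a (0.21), Smad3 (0.047), Smad5 (0.35) and Skil (-0.37) kept their sign and did not pass. Tgfbr2 was also 1.99 with plain probe sets and 0.62 with the mean over its probe sets. The cause was not tested. Id1 passed under 10 of 21 alternatives, and Id2 and Inhba under 4 of 22 each.

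Of the other pathway genes, 11 were higher with the next highest probe set, where genes with 1 probe set again kept it. In that setting Smurf2 was -0.089 and Msx1 -0.015 (the latter also with plain probe sets). The count lower was 14 with array weights, 4 with plain probe sets, 3 at a fold of at least 2, 4 in arrays numbered 7 to 10 alone, and 6 to 12 with any 1 array left out, 12 being without EB9. Plain probe sets gave values for 49 of the 51 genes, and the filter at log2 4 for 39. Leaving out ES8 and ES10 together was chosen after seeing the data. No paired analysis was possible because the groups share no replicate number and the labels match no ES cell array with an embryoid body array; the only block fitted was the array set.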
